A study of Mus musculus with 8 samples.

Results

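The genes described here encode the proteins of the cytosolic ribosome in mouse bone marrow and fetal liver, with or without Col18a1. Members carried a symbol made of Rpl or Rps and a number, with an optional suffix a, x, y or l, or were Rplp0 to Rplp2. Symbols were read from array probe sets that name a single gene, and the brightest such probe set stood for each gene. Of 18194 genes on the array, 45 symbols matched and 44 were members, 24 of the large and 20 of the small subunit. Rps4l was left out because the RefSeq gene table lists it as a transcribed pseudogene. A further 36 protein-coding symbols of this kind in RefSeq had no probe set of their own here and were not read.

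Each of 8 arrays measured total RNA of a suspension of all cells of 1 tissue, pooled from 2 littermates. The groups were E14.5 fetal liver of Col18a1-/- mice, E14.5 fetal liver of Col18a1+/+ mice, bone marrow of Col18a1-/- males and bone marrow of Col18a1+/+ males, the males being 3 months old. The strain label of all groups is C57B6/J, each group had 2 arrays, and the labels name no sex for the embryos. Here KO and WT stand for the Col18a1-/- and Col18a1+/+ mice, labelled as without or with Col18a1, the gene for the alpha chain of collagen XVIII. The design text calls KO and WT animals littermates while the protocol names a line for each genotype, and if the lines were kept apart, line and genotype cannot be told apart. The labels restrict the deletion to no cell type, and a KO difference cannot be assigned to 1 cell type of a suspension.

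A cytosolic ribosome joins a small subunit, which decodes the mRNA, to a large subunit, which forms the peptide bond. Each subunit takes up a single copy of most of its proteins, and many of their mRNAs open with a 5′ oligopyrimidine tract, the element through which the mTOR pathway and the RNA-binding protein Larp1 control their translation. Both tissues are sites of intense blood cell formation, and in humans the loss of 1 copy of any of several of these genes causes Diamond-Blackfan anaemia, a failure of red cell precursors.

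Promoter sequences were found in the RefSeq table (GRCm38.p6) for 39 of the 44 members. The stretches shown here run from 40 bases before to 20 bases after the transcription start. They are those of the members with the largest called differences between the tissues in both genotypes (Rpl39l, Rpl14, Rpl27a, Rps6), of the paralog pairs (Rpl39l with Rpl39, Rps27l with Rps27) and of the gene that varied least over the arrays (Rps10). Capitals mark the longest run of C and T letters inside the window from 10 bases before to 20 bases after the start, cut at its edges.
Rpl39l (chr16:10170188-10170247, plus strand): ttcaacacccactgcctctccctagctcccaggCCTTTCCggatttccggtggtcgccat
Rpl39 (chrX:37085203-37085262, minus strand): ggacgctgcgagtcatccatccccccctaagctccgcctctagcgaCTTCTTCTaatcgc
Rpl14 (chr9:120571477-120571536, plus strand): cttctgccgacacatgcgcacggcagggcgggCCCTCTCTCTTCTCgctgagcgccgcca
Rpl27a (chr7:109519155-109519214, plus strand): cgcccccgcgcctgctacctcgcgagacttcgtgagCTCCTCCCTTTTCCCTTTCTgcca
Rps6 (chr4:86857348-86857407, minus strand): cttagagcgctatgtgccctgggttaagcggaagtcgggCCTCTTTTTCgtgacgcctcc
Rps27l (chr9:66946046-66946105, plus strand): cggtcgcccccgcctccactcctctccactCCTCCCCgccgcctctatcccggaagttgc
Rps27 (chr3:90213629-90213688, minus strand): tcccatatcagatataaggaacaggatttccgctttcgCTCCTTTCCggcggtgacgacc
Rps10 (chr17:27635225-27635284, minus strand): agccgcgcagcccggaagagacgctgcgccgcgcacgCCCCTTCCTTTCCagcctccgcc

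The marked run was 20 letters in Rpl27a, 14 in Rpl14 and 13 in Rps10, but 7 in Rpl39l. It was also 7 in the Rps27l start shown, the first of its starts in the table, where the run goes on upstream of the window's edge. A run of at least 7 C or T letters on the strand of the gene was found in that window for 23 of the 39 members (59.0%), and for 20.5% of the 27025 genes of the table. The letters CCGGAAG or, on the other strand, CTTCCGG, a core that ETS family factors are known to bind, were found in the 300-base window of 19 of the 39 members (48.7%), and in 9.93% of all genes of the table. The letters CTTCC of the core can lie inside a run, so the counts are not independent. These are counts of letters in the reference genome and were not measured on the arrays.

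Log2 intensities (the array's brightness per probe set, in which 1 unit is a 2-fold difference) of the members were high. A gene was tested if 2 or more arrays reached a log2 level of 5, which 13136 genes did, 42 members among them. Of the 44 members, 33 averaged 12 or more over the 8 arrays, as did 311 of the tested genes. Rpl3l, a paralog of Rpl3 known from muscle, lay between 3.09 and 3.68 on every array, and the single-gene probe set of Rps16 between 3.51 and 3.84, so neither was tested. Levels of different probe sets are not comparable with each other, and no saturation flags were used, so any ceiling on the brightest probe sets was not tested.

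The data as a whole were even in brightness, with median intensities of 40.8 to 42.6 on the 8 arrays, and arrays of 1 group correlated at r = 0.992 to 0.997 across genes. Col18a1 read 8.17 and 8.06 in KO fetal liver, against 9.06 and 9.18 in WT fetal liver, and fell by 1.003 ± 0.127 log2 units (limma, adjusted p = 0.0315). It read 5.63 and 5.99 in KO bone marrow, against 7.84 and 7.85 in WT bone marrow, and fell by 2.03 ± 0.13 (adjusted p = 0.000787). Signal thus remained in KO, above the WT bone marrow level in the case of KO fetal liver, and no label places the probe set inside or outside the deleted part. Sex-linked genes also set the KO and WT pools of fetal liver apart. Xist read 4.97 and 4.77 in KO fetal liver, against 11.04 and 11.22 in WT fetal liver. The Y-linked Eif2s3y read 9.38 and 9.42 in KO fetal liver, against 3.29 and 3.00 in WT fetal liver. Errors given with a difference are standard errors of the limma fit to all 8 arrays, p-values are two-sided and adjusted over all 13136 genes, and a gene is called at an adjusted p under 0.05. With 2 pools a group, such p-values measure the spread between pools of littermates.

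Loss of Col18a1 came with no called difference in any ribosomal protein gene of fetal liver. Of 42 members, 0 were called by limma, where 0.32% of all tested genes were, and 3 members had an unadjusted p under 0.05, where 22% of all tested genes did. The median KO minus WT difference over the 44 members was -0.03, beside -0.02 over all genes on the array. Of the 44 differences, 43 were within 1.5-fold, as were 98.3% of those of all genes on the array. The 95% intervals of 39 of the 42 tested members lay wholly within 1.5-fold, as did 79.1% of those of all tested genes. KO and WT arrays did not overlap in 16 members, 4 above and 12 below, where 50.1% of all tested genes did not (19.9% above and 30.2% below).

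The 3 members with an unadjusted p under 0.05 were all of the large subunit. Rpl11, whose free protein is known to bind Mdm2 and stabilise p53, read 12.80 and 13.10 in KO fetal liver, against 13.31 and 13.25 in WT fetal liver. Both KO arrays lay below both WT arrays, by -0.33 ± 0.11 on average (limma, adjusted p = 0.157). Rpl37, another large subunit protein, read 8.13 and 7.61 in KO fetal liver, against 7.41 and 7.36 in WT fetal liver. The KO arrays were the higher ones, and the difference was 0.49 ± 0.16 (adjusted p = 0.144). Rpl39l, a paralog of Rpl39 known for its expression in testis, read 7.27 and 7.998 in KO fetal liver, against 6.33 and 7.25 in WT fetal liver. Its lower KO value lay just above its higher WT value, and the difference was 0.85 ± 0.32 (adjusted p = 0.182), the 1 member beyond 1.5-fold.

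The next largest negative differences in fetal liver were those of Rps27 at -0.25 ± 0.13, Rps14 at -0.23 ± 0.11, Rpl19 at -0.22 ± 0.10 and Rps19 at -0.21 ± 0.11, none of which were called. Rps19, the gene altered most often in Diamond-Blackfan anaemia, read 12.72 and 13.00 in KO fetal liver, against 13.08 and 13.06 in WT fetal liver. KO replicate 1 carried most of this distance, and it was the lowest of the 4 fetal liver arrays in 25 of the 42 members, where it was lowest in 33.1% of all tested genes. The median SD between the arrays of a group was 0.076 for the tested members in KO fetal liver and 0.033 in WT fetal liver. Left without KO replicate 2, the fit called 2 members, Rpl11 at -0.48 (adjusted p = 0.0392) and Rpl37 at 0.75 (adjusted p = 0.0224), where it called 7.69% of all genes. The part of the pools' difference in Xist and Eif2s3y in any of these values was not tested, and embryo sex and genotype cannot be told apart in these 4 pools.

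**Figure D1:**
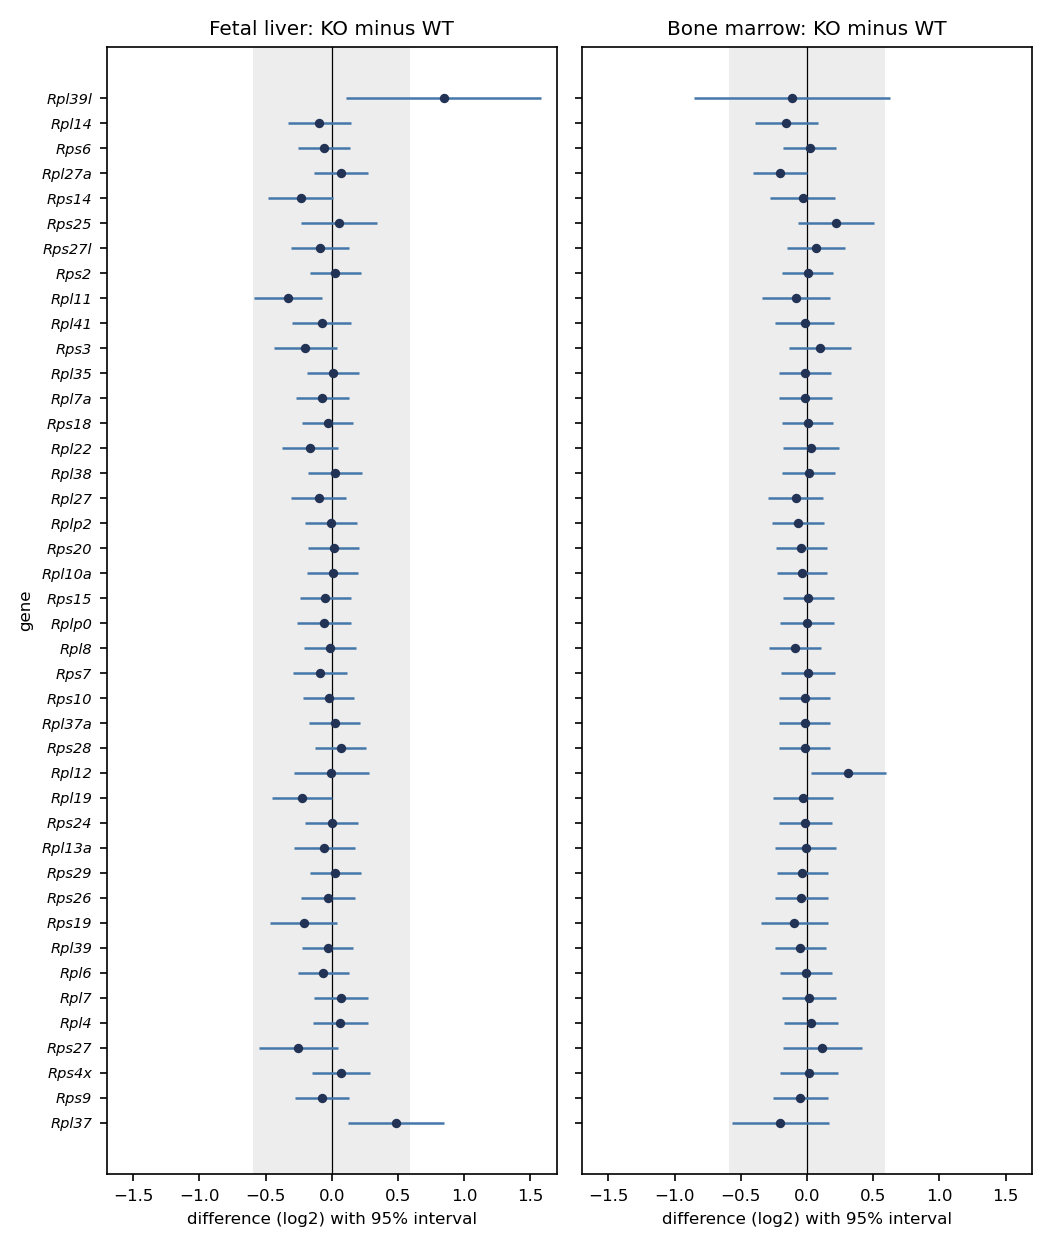
Difference of each tested ribosomal protein gene, KO minus WT in log2 units, in fetal liver (left) and bone marrow (right). Points are differences of means of 2 arrays each, lines are 95% intervals of the limma fit, and the grey band marks 1.5-fold. Intervals stay within the band for 39 of 42 genes in fetal liver and 40 of 42 in bone marrow, and none of the differences was called.

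In adult bone marrow the ribosomal protein genes likewise showed no called difference. Of 42 members 0 were called by limma, where 0.411% of all tested genes were, and 1 had an unadjusted p under 0.05, where 6.74% of all tested genes did. The median KO minus WT difference over the 44 members was -0.01, beside 0.01 over all genes. All 44 differences were within 1.5-fold, as were 99.1% of those of all genes on the array. Tested members ran from -0.20 (Rpl27a) to 0.31 (Rpl12), and 40 of the 42 intervals lay wholly within 1.5-fold, as did 89.5% of those of all tested genes. KO and WT arrays did not overlap in 19 members, 4 above and 15 below, where 43.1% of all tested genes did not (23.8% above and 19.3% below).

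Rpl12, a large subunit protein at the base of the stalk that contacts translation factors, read 8.20 and 8.14 in KO bone marrow, against 7.78 and 7.93 in WT bone marrow. Both KO arrays lay above both WT arrays, and the difference of 0.31 ± 0.12 was not called (adjusted p = 0.703). Rps25, a small subunit protein known for its part in initiation at viral internal entry sites, read 9.50 and 9.27 in KO bone marrow, against 9.26 and 9.07 in WT bone marrow, 0.22 ± 0.13 apart. Rpl27a read 8.91 and 8.98 in KO bone marrow, against 9.19 and 9.11 in WT bone marrow, which is -0.20 ± 0.09. Rpl37 was at -0.20 ± 0.16, on the other side of 0 from its value in fetal liver. The summed intensity of 10 megakaryocyte markers was 7601 to 7958 in KO bone marrow, against 15293 to 18380 in WT bone marrow, and the part of these cells in the small differences here was not tested.

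The stalk genes were close to level in both tissues. Rplp0 encodes the scaffold of the stalk and is often used to normalise RNA measurements. It read 14.05 and 14.17 in KO fetal liver and 14.18 and 14.15 in WT fetal liver. In bone marrow its levels were 14.04 and 14.12 in KO, against 14.08 in both WT arrays. Rplp2, which pairs with Rplp1 at the tip, read 14.18 and 14.27 in KO fetal liver, against 14.21 and 14.24 in WT fetal liver. In bone marrow it was at 14.01 and 14.04 in KO and 14.11 and 14.07 in WT. Among the 12 members listed as Diamond-Blackfan genes, Rpl11 in fetal liver was the 1 with an unadjusted p under 0.05, and 0 were called by limma in either tissue. Their differences lay between -0.33 and 0.07 in fetal liver and between -0.10 and 0.12 in bone marrow.

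No member was called for a KO difference that differs between the tissues. For the KO difference in fetal liver minus that in bone marrow, 0 of 42 members were called by limma, where 0.0914% of all tested genes were. The 1 member with an unadjusted p under 0.05 was Rpl37, at 0.69 ± 0.23 (adjusted p = 0.237), where 15.7% of all tested genes passed that level. For Rpl39l the same quantity was 0.96 ± 0.46 (adjusted p = 0.349) and a 95% interval from -0.08 to 2.00.

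The larger contrast was between the tissues, and there most of the members were also close to level. In KO, 8 of 42 members were called, 6 higher in fetal liver and 2 lower, where 63.8% of all tested genes were called (36.6% higher and 27.1% lower). In WT, 10 of 42 were called, 9 higher and 1 lower, where 65.9% of all tested genes were called (39.2% higher and 26.8% lower). The median fetal liver minus bone marrow difference over the 44 members was 0.04 in KO and 0.10 in WT, beside 0.10 and 0.13 over all genes on the array. Of the 44 members, 41 were within 1.5-fold in each genotype, where 69.2% of all genes were in KO and 67.1% in WT. Unadjusted p-values under 0.05 numbered 14 in KO and 11 in WT, where 67.3% and 68.9% of all tested genes passed that level. Among the 33 members at 12 or more, 2 were called in KO and 5 in WT, while among 278 other genes this bright 160 (57.6%) were called in KO and 176 (63.3%) in WT.

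The arrays of the tissues did not overlap in 32 members in KO, 21 above and 11 below, where 82.4% of all tested genes did not (47.8% above and 34.5% below). In WT they did not overlap in 36, 23 above and 13 below, where 84.8% of all tested genes did not (50.9% above and 33.8% below). The KO and WT comparisons share no array. They had 6 calls in common among the 42 members, where 7261 of all 13136 tested genes were called in both. The 6 were Rpl39l, Rpl14, Rpl27a, Rps6 and Rps2, higher in fetal liver, and Rps9, lower there. Called in neither were 30 members. The sign was the same in 36 of the 42, and this share was not counted over all tested genes. A variance model with a trend on brightness and robust moderation called 22 members in KO (15 higher, 7 lower) and 24 in WT (19 higher, 5 lower), down to absolute differences of 0.14 in each genotype, with 15 members in both. At 12 or more, that model called 15 of 33 members and 193 of 278 other genes in KO, and 19 and 199 in WT. The full counts under that model and those with 1 array left out are given without the share of all tested genes. They cannot be read against it here. Left without 1 array at a time, the count of calls ran from 5 to 11 in KO, with 5 when bone marrow replicate 1 was left out. In WT it ran from 5 to 13, with 5 without bone marrow replicate 2 and 6 without either fetal liver array.

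**Figure D2:**
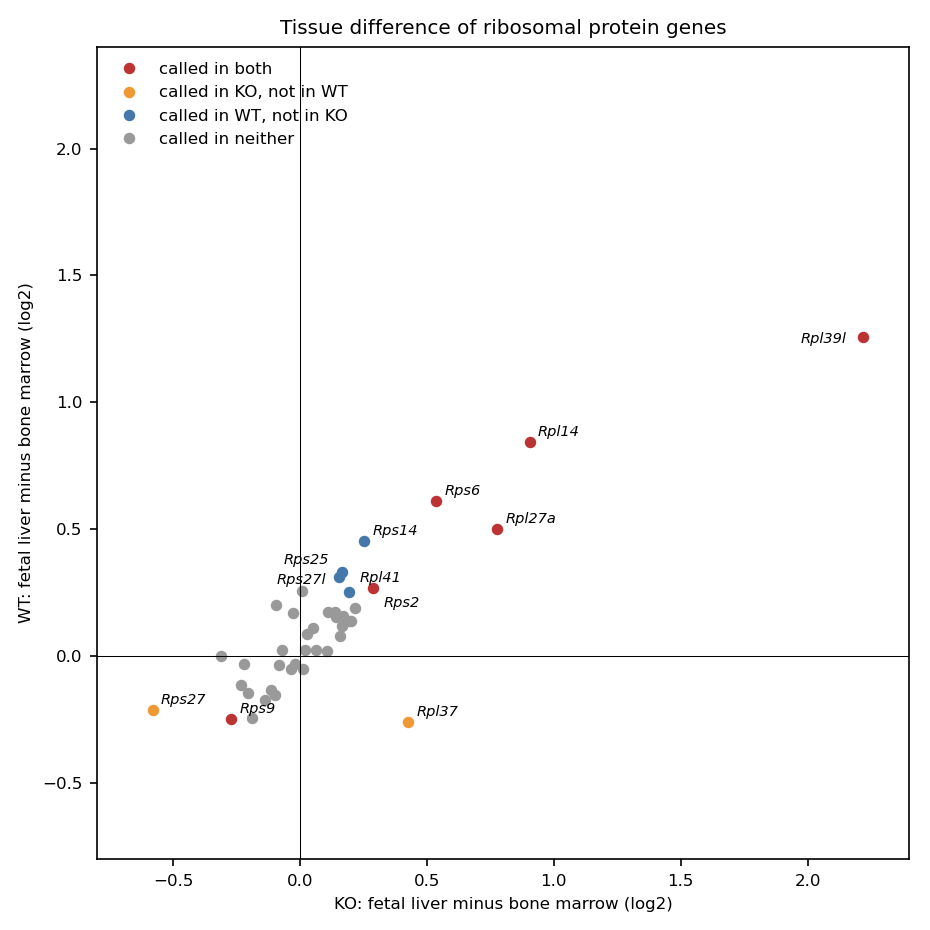
Difference between fetal liver and bone marrow (log2) of the 42 tested ribosomal protein genes, KO on the horizontal and WT on the vertical axis, on equal scales. Each point is a gene, coloured by the comparison in which limma called it. Rpl39l stands at 2.22 in KO and 1.26 in WT, followed by Rpl14, Rpl27a and Rps6, and most other genes lie near 0 on both axes.

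The largest tissue difference among the members was that of Rpl39l. It read 7.27 and 7.998 in KO fetal liver, against 5.67 and 5.17 in KO bone marrow. The WT levels were 6.33 and 7.25 in fetal liver, against 5.45 and 5.61 in bone marrow. All 4 fetal liver arrays lay above all 4 bone marrow arrays. The difference was 2.22 ± 0.32 in KO (limma, adjusted p = 0.000328) and 1.26 ± 0.32 in WT (adjusted p = 0.00785). The WT call was lost without WT fetal liver replicate 2, where the difference was 0.80 (adjusted p = 0.0537). Rpl39, its X-linked partner without the l, read 6.97 and 7.04 in KO fetal liver, against 7.15 and 7.08 in KO bone marrow. The WT pools gave 7.02 and 7.05 in fetal liver, against 7.17 and 7.16 in bone marrow, and it was called in neither genotype.

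Rpl14, Rpl27a and Rps6 rose in fetal liver in both genotypes and were called under every one of the 22 other settings tried. Rpl14, of the large subunit, read 8.29 and 8.20 in KO fetal liver, against 7.34 in both KO bone marrow arrays. Among WT arrays the values were 8.21 and 8.46 in fetal liver, against 7.52 and 7.47 in bone marrow. The tissues stood 0.90 ± 0.10 apart in KO and 0.84 ± 0.10 apart in WT (adjusted p = 7.65e-05 and 0.000109). Rpl27a, also of the large subunit, read 9.72 on both KO fetal liver arrays, against 8.91 and 8.98 in KO bone marrow. In WT it read 9.60 and 9.70 in fetal liver, against 9.19 and 9.11 in bone marrow. Its differences were 0.78 ± 0.09 in KO and 0.50 ± 0.09 in WT, and no array of 1 tissue reached the other tissue's range.

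Rps6 is the small subunit protein that the S6 kinases phosphorylate downstream of mTOR. It read 9.62 and 9.72 in KO fetal liver, against 9.11 and 9.15 in KO bone marrow. The WT levels were 9.75 and 9.71 in fetal liver, against 9.10 and 9.13 in bone marrow. No array of 1 tissue came near the other tissue's range, and the difference was 0.54 ± 0.09 in KO and 0.61 ± 0.09 in WT (adjusted p = 0.000591 and 0.000246). Rps6 had 2 single-gene probe sets, and over the other settings its difference went as low as 0.25 in KO and 0.39 in WT. These 3 genes were read by probe sets averaging under 12. Of the 9 tested members under 12, 6 were called in KO and 5 in WT, where 63.8% and 65.9% of all tested genes were.

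Among the bright members of the small subunit, Rps2, which lines the path by which mRNA enters the ribosome, read 14.14 and 14.16 in KO fetal liver, against 13.84 and 13.88 in KO bone marrow. The WT pools gave 14.16 and 14.09 in fetal liver, against 13.86 and 13.85 in bone marrow. The gap was 0.29 ± 0.08 in KO and 0.27 ± 0.08 in WT (adjusted p = 0.0150 and 0.0199), small but outside the spread of the arrays. The KO call was lost without KO bone marrow replicate 1, and the WT call without WT fetal liver replicate 1 or either WT bone marrow array.

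Rps14, whose loss of 1 copy underlies the anaemia of the human 5q deletion, read 14.21 and 14.47 in KO fetal liver, against 14.09 in both KO bone marrow arrays. In WT it read 14.63 and 14.52 in fetal liver, against 14.15 and 14.10 in bone marrow. All fetal liver arrays lay above all bone marrow arrays. The difference was 0.25 ± 0.11 in KO without a call (adjusted p = 0.0686). It was 0.45 ± 0.11 in WT (adjusted p = 0.00526), where it was called under each of 23 other settings too. Its second probe set gave 0.18 in KO and 0.48 in WT.

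Rps9, of the small subunit, was lower in fetal liver on its main probe set. It read 13.13 and 13.26 in KO fetal liver, against 13.44 and 13.49 in KO bone marrow. Among WT arrays the values were 13.24 and 13.30 in fetal liver, against 13.52 and 13.51 in bone marrow. It fell by 0.27 ± 0.09 in KO and by 0.25 ± 0.09 in WT (adjusted p = 0.0274 and 0.0374), with no overlap. A nearly as bright second probe set of Rps9 ran the other way, at 0.33 in KO and 0.13 in WT, so the direction depends on the probe set. The WT call was also lost with each array centred on its median (-0.20) and without any of 6 arrays, in turn, both KO bone marrow arrays among them. The KO call was lost without KO fetal liver replicate 1 or either KO bone marrow array.

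Rps27 and Rps27l, a pair of paralogs of the small subunit of which Rps27l is a known p53 target, were each called in 1 genotype. Rps27 read 5.81 and 5.79 in KO fetal liver, against 6.24 and 6.53 in KO bone marrow. In WT it read 6.13 and 5.97 in fetal liver, against 6.40 and 6.13 in bone marrow. It fell by 0.58 ± 0.13 in KO (adjusted p = 0.00419), while the WT arrays of the tissues met at 6.13 and the difference of -0.21 ± 0.13 was not called. Its single-gene probe set was dim, averaging 6.13 over the 8 arrays. Rps27l read 12.21 and 12.34 in KO fetal liver, against 12.13 and 12.11 in KO bone marrow. The WT levels were 12.30 and 12.43 in fetal liver, against 12.09 and 12.02 in bone marrow. It was at 0.15 ± 0.09 in KO without a call, and rose by 0.31 ± 0.09 in WT (adjusted p = 0.0179). The WT call was lost without WT fetal liver replicate 2 or WT bone marrow replicate 2, and its other 2 probe sets gave 0.22 and 0.34 in WT.

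The 3 other members called in 1 genotype depended on single arrays. Rpl41, the smallest ribosomal protein, was at 0.25 ± 0.10 in WT (adjusted p = 0.0486), and its plain probe set, without a shared-probe suffix, was at -0.16. Its call was lost without any of 6 arrays, in turn, both KO bone marrow arrays among them. Rps25 was at 0.33 ± 0.13 in WT (adjusted p = 0.0438), with 9.51 and 9.48 in WT fetal liver, against 9.26 and 9.07 in WT bone marrow. It was not called without either WT fetal liver array or without WT bone marrow replicate 2. Rpl37 was at 0.43 ± 0.16 in KO (adjusted p = 0.0430), with 8.13 and 7.61 in KO fetal liver, against 7.38 and 7.51 in KO bone marrow. In WT it was at -0.26 ± 0.16, and the KO call was lost without any 1 array except KO fetal liver replicate 2.

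**Figure D3:**
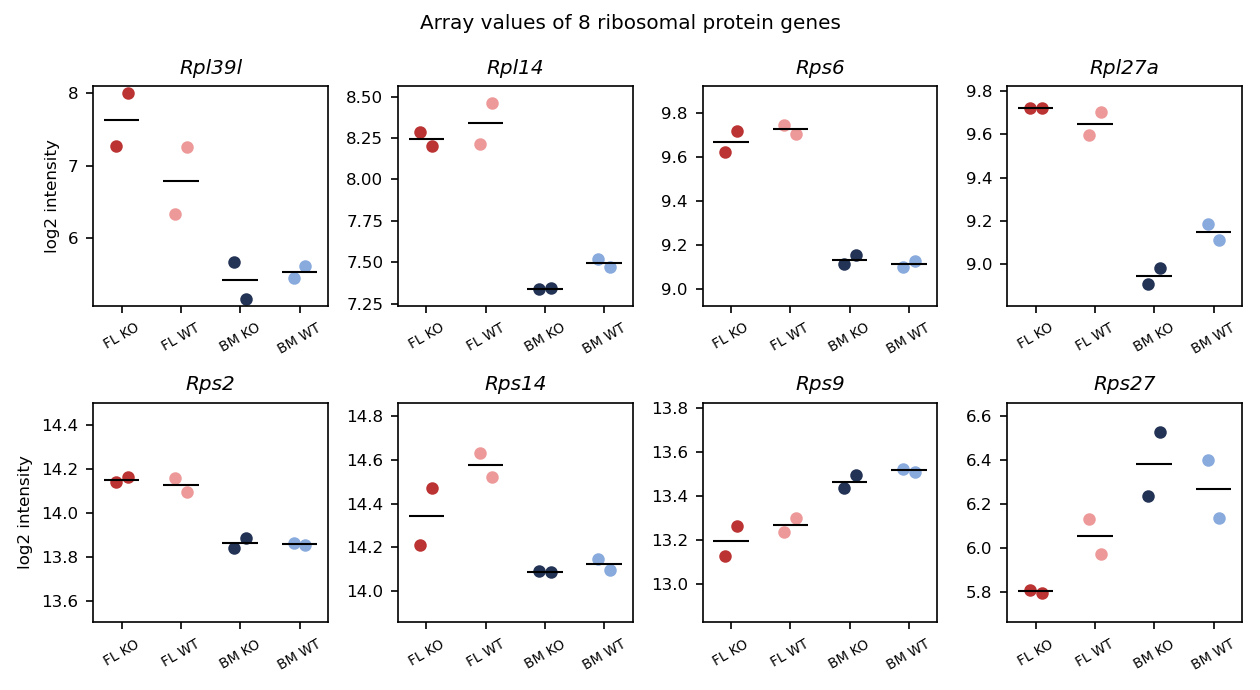
Log2 intensity of 8 ribosomal protein genes on each array, in fetal liver (FL) and bone marrow (BM) of KO and WT mice, with each panel on its own scale. Points are arrays and black lines are means of 2. Fetal liver lies above bone marrow for the first 6 genes and below it for Rps9, while the WT arrays of Rps27 are close together.

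Calls were spread over both subunits. Of the large subunit, 4 of 23 tested members were called between the tissues in each genotype. Of the small subunit, 4 of 19 were called in KO and 6 of 19 in WT. Over all tested genes, 63.8% were called in KO and 65.9% in WT. Of the 12 Diamond-Blackfan genes, Rps27 was called in KO and 0 in WT by limma. Of them, 3 in KO and 0 in WT had an unadjusted p under 0.05, where 67.3% and 68.9% of all tested genes did. Neither X-linked member, Rps4x or Rpl39, was called by the limma fit used above, although no fetal liver array of either reached the bone marrow range. Rps4x read 13.78 and 13.91 in KO fetal liver, against 14.00 and 14.07 in KO bone marrow. The WT pools gave 13.70 and 13.85 in fetal liver, against 14.01 and 14.02 in bone marrow. With a trend on brightness and robust moderation, limma called Rps4x at -0.19 in KO and -0.24 in WT (adjusted p = 0.0213 and 0.00523). That model called Rpl39 in neither genotype. In WT, Rps4x was also called with array weights and after a second quantile normalization.

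Cell content and RNA quality differed widely between the tissues, as did sex-linked genes in WT. All 8 hepatocyte markers were called higher in fetal liver in both genotypes. Their summed intensity was 84826 to 91041 over the fetal liver arrays, against 198 to 228 over the bone marrow arrays. All 11 neutrophil markers and all 7 B cell markers were called lower in fetal liver in both genotypes, the neutrophil sum being 11017 to 15209, against 142775 to 146547 in bone marrow. The summed erythroid markers overlapped, at 56724 to 62435 in fetal liver, against 61972 to 64911 in bone marrow. The 3′ minus 5′ difference of the Gapdh control probe sets, a sign of RNA length, was 1.86 and 1.62 in KO fetal liver and 1.33 and 1.66 in WT fetal liver. In bone marrow it was 0.73 and 0.48 in KO and 0.78 and 0.56 in WT. The fetal liver minus bone marrow difference of Xist was 6.31 in WT and 0.05 in KO, and that of Eif2s3y -6.75 and -0.31. In WT, sex and tissue thus cannot be told apart. The part of these differences in the tissue values of the ribosomal protein genes was not tested, and fewer cells of a type and less RNA per cell cannot be told apart in such mixtures.

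**Figure D4:**
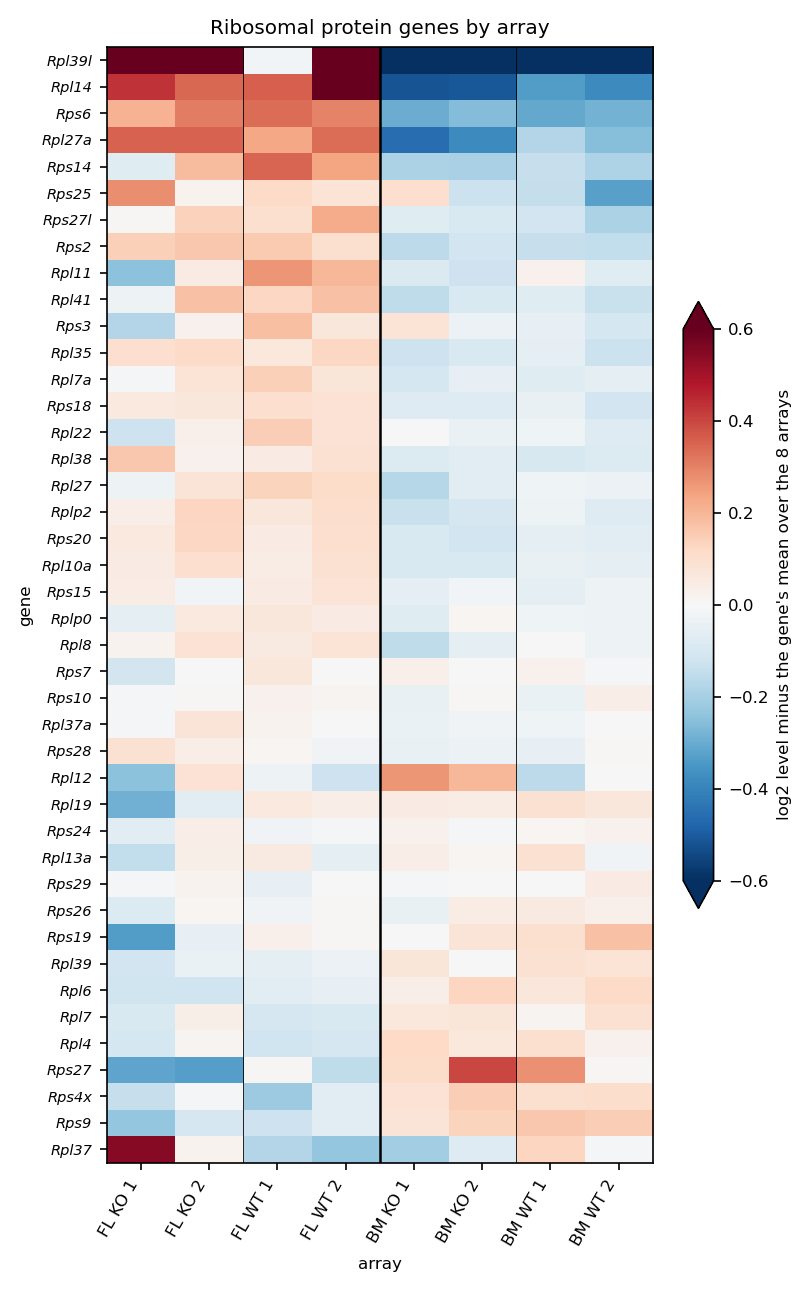
Log2 level of each tested ribosomal protein gene on each array minus its mean over the 8 arrays, with genes ordered by the WT difference between fetal liver (FL) and bone marrow (BM). Red is above and blue below the mean, and colours end at 0.6 units. The strong colours are at Rpl39l, Rpl14, Rps6 and Rpl27a, and at single arrays of Rpl37, Rps19 and Rps27, while Rps10 and Rps29 are near white throughout.

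Across both tissues and genotypes many members moved little. The range over the 8 arrays had a median of 0.26 log2 units over the tested members, beside 0.76 over all tested genes. Of the 42, 26 had a range under 0.34 (1.26-fold), as did 1314 of all 13136 tested genes. Of the 33 members at 12 or more, 25 (75.8%) had a range that narrow, as did 73 (26.3%) of the 278 other genes at 12 or more. All these ranges are those of each gene's brightest probe set, on which any ceiling was not tested.

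The narrowest ranges were those of Rps10 at 0.08, Rps29 at 0.10, Rps24 at 0.11 and Rpl37a at 0.12. Rps10, a small subunit protein, lay between 14.03 and 14.11 on every array. Rps29, a zinc-binding small subunit protein, lay between 14.41 and 14.50. On their main probe sets, the genes often used to normalise RNA measurements had ranges of 0.14 (Rplp0), 0.22 (Rps18) and 0.24 (Rpl13a). The widest ranges were those of Rpl39l at 2.83 and Rpl14 at 1.13.

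Several members were read by more than 1 probe set, and these differed for some genes. The 44 members had 97 single-gene probe sets, and 22 members had several. Of the 89 probe sets tested as separate features, 28 were called between the tissues in KO and 23 in WT. Over all probe sets 60.5% and 63.2% were, and 0 of the 89 were called by limma between genotypes. Among the 47 of them dimmer than the gene's main one, 21 (44.7%) were called in KO and 16 (34.0%) in WT. Their median tissue differences were 0.20 in KO and 0.18 in WT. Of Rpl13a, the main probe set stood at -0.08 in KO and -0.04 in WT, while its dimmest one stood at 0.73 and 0.88. Between them in brightness, Rpl13a probe sets averaging 13.71 and 12.94 stood at -0.42 and 0.45 in KO and at -0.16 and 0.54 in WT. Of Rps24, main and dimmest tested probe sets stood at -0.02 and 1.59 in KO and at -0.03 and 0.81 in WT. Of Rps3, they stood at -0.10 and 0.73 in KO and at 0.20 and 0.84 in WT. A further 110 probe sets name a ribosomal protein gene together with other genes, often processed copies, and were not assigned to a gene. Of the 105 of these tested, 29 were called between tissues in KO and 25 in WT, with median differences of 0.07 and 0.03, and 0 were called by limma between genotypes.

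Genes that build or serve the ribosome were then set beside its proteins, from lists written by hand, and their calls are to be read against the 63.8% of all tested genes called between tissues in KO and 65.9% in WT. Of 50 ribosome biogenesis factors tested, 44 were called between tissues in KO (43 higher in fetal liver, 1 lower) and 46 in WT (45 higher, 1 lower), with medians of 0.75 and 0.90. Tsr1, which matures the small subunit, read 9.996 and 9.990 in KO fetal liver, against 8.77 and 8.54 in KO bone marrow. Nop16, a nucleolar factor of the large subunit, read 9.51 and 9.56 in WT fetal liver, against 8.08 and 8.06 in WT bone marrow. No fetal liver array of these 2 genes reached the bone marrow range in either genotype.

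**Figure D5:**
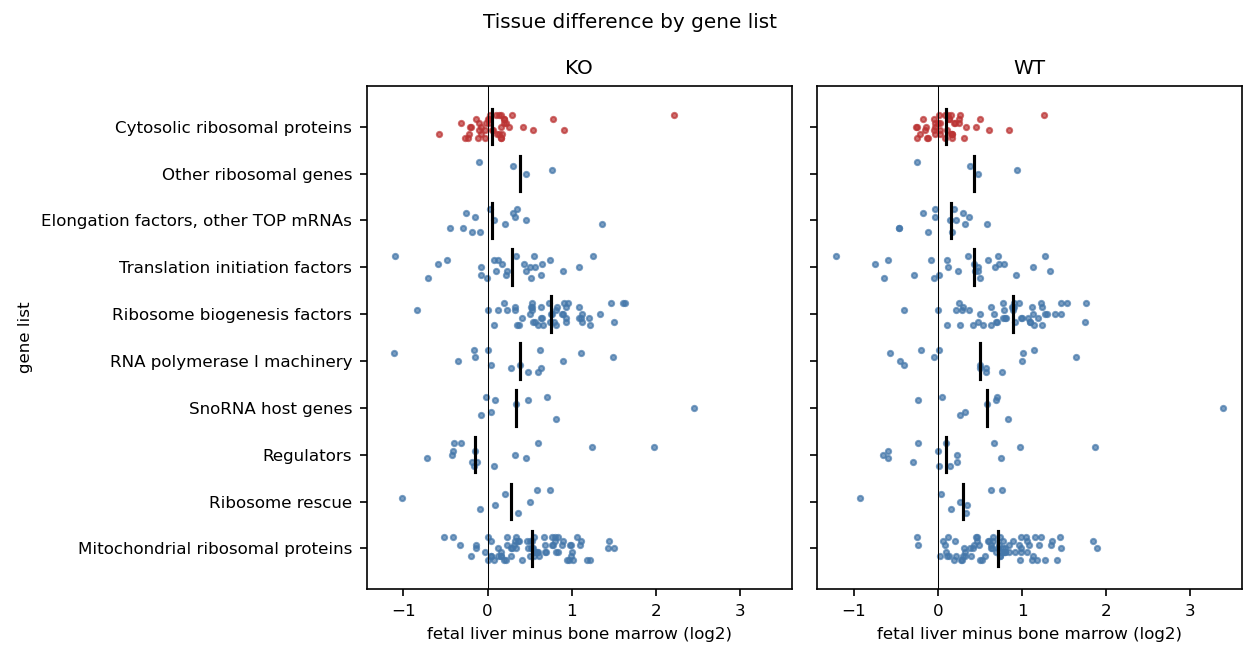
Difference between fetal liver and bone marrow (log2) in KO (left) and WT (right), 1 point per tested gene, for the cytosolic ribosomal proteins (red) and lists of related genes (blue). Black bars are medians over the tested genes, and heights within a list only separate points. The ribosomal proteins gather near 0, whereas biogenesis factors and mitochondrial ribosomal proteins have medians of 0.75 and 0.53 in KO and of 0.90 and 0.72 in WT.

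Of 76 proteins of the mitochondrial ribosome, 58 were called in KO (55 higher, 3 lower) and 64 in WT, all 64 higher in fetal liver, with medians of 0.53 and 0.72. RNA polymerase I and its factors, which make ribosomal RNA, had 10 of 15 called in KO (9 higher, 1 lower) and 11 of 15 in WT (9 higher, 2 lower). Translation initiation factors had 17 of 26 called in KO (13 higher, 4 lower) and 19 of 26 in WT (15 higher, 4 lower). The shares of these last 2 lists were near those of all tested genes. Elongation factors and other mRNAs with a 5′ oligopyrimidine tract were divided, with 5 higher and 3 lower of 14 in KO and 4 higher and 2 lower in WT, and medians of 0.05 and 0.15. Pabpc1, the poly(A)-binding protein, fell by 0.30 ± 0.08 in KO and by 0.46 ± 0.08 in WT (limma, adjusted p = 0.0123 and 0.00104). Whether the members differ from any of these lists was not tested.

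The 4 ribosomal genes that the symbol rule leaves out were Rpsa, Fau, Rpl7l1 and Rpl22l1. Rpsa, which encodes a small subunit protein also known as the laminin receptor, read 14.41 and 14.45 in KO fetal liver, against 13.93 and 14.02 in KO bone marrow. Its difference of 0.46 ± 0.09 in KO and 0.48 ± 0.09 in WT was called in both. Rpl7l1 rose by 0.77 ± 0.09 in KO and 0.94 ± 0.09 in WT, and Rpl22l1, the paralog of Rpl22, by 0.31 ± 0.10 and 0.39 ± 0.10. Fau, whose product yields a small subunit protein, was at -0.10 ± 0.09 in KO without a call and fell by 0.25 ± 0.09 in WT. The pseudogene Rps4l, next to the rule's edge, read 9.98 and 9.83 in KO fetal liver, against 7.28 and 7.31 in KO bone marrow. Among WT arrays the values were 10.01 and 9.90 in fetal liver, against 7.19 and 7.11 in bone marrow.

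Between genotypes, 0 genes of these lists were called by limma in fetal liver or in the tissue-by-genotype comparison, where 0.32% and 0.0914% of all tested genes were. In bone marrow 0.411% of all tested genes were called, and 1 gene of these lists was. This was Npm1, which encodes nucleophosmin, a nucleolar chaperone that shuttles ribosomal subunits. It read 12.11 and 12.02 in KO bone marrow, against 12.94 and 12.85 in WT bone marrow. It fell by 0.83 ± 0.10 in KO bone marrow (adjusted p = 0.0120), a second probe set gave -0.81, and in KO fetal liver it was at -0.05 ± 0.10. Among the 50 biogenesis factors, unadjusted p-values under 0.05 numbered 12 in fetal liver and 3 in bone marrow, and among the 76 mitochondrial ribosomal proteins 29 and 0, where 22% of all tested genes passed that level in fetal liver and 6.74% in bone marrow.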

How the data were processed

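For each array the authors deposited linear intensities of 45101 probe sets. RMA produced them, per the submitters' processing notes, its version being not given in the sources used here. RMA equalises the brightness distributions of arrays, which would remove a shift of most genes 1 way. Intensities were turned into log2 values here. By the platform annotation 34958 probe sets have 1 gene, 932 several and 9211 none named here, and no columns were left out (0 unused).

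A gene's brightest single-gene probe set, by its mean of 8 arrays, stood for each of 18194 genes, and 13136 genes were tested, those with a log2 level of 5 or more on 2 or more arrays. Of the members' main probe sets, 14 have the suffix _a_at, 2 _s_at and 14 _x_at, the last holding probes that may read other transcripts, and 14 have none. Group means were estimated jointly from all 8 arrays in limma 3.58.1 (R 4.3.3), with default moderation. Residual degrees of freedom were 4 and prior ones 4.48, and p-values were adjusted by Benjamini-Hochberg over all genes tested. The fit was tested on simulated data. With 2 arrays a group, precision is limited throughout.

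The members and gene lists were chosen with earlier results of these data known. Named were the members called, the 5 largest differences each way, paralog pairs, stalk, X-linked and Diamond-Blackfan genes, and up to 4 genes per other list. Alternatives covered the filter, probe set choice, normalization, pseudocount, variance model, array weights, replicate block, arrays in the fit, threshold, X-linked members and each array left out. Probe sets as separate features and members at 12 or more were added after seeing the data. Promoters came from a RefSeq table (GRCm38.p6), and array files name no genome build.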

Additional observations from a re-analysis of the deposited data

How the results depend on the processing

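No member was called between genotypes under any setting run, except 2 in fetal liver without KO replicate 2 (0 to 2 over the arrays left out; bone marrow and the tissue-by-genotype comparison 0). The fetal liver KO median was -0.0692 with each array centred on its median, and -0.0524 to -0.00263 leaving out 1 array. The tissue-by-genotype median was 0.0115 with the mean of all probe sets, -0.0521 centred, and -0.0386 to 0.0280 leaving out 1 array.

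Between tissues in KO, the count of 8 became 18 with the mean of all probe sets, 22 with a trend and robust variance, 16 at an adjusted p under 0.1, 2 among members at 12 or more (chosen after seeing the data) and 5 to 11 leaving out 1 array. The KO median was 0.16 with the mean of all probe sets, 0.10 with probe sets without a suffix, and 0.0202 to 0.0662 leaving out 1 array. In WT, the count of 10 became 24 with a trend and robust variance, 5 among members at 12 or more, and 5 to 13 leaving out 1 array. The WT median was 0.14 with the mean of all probe sets and 0.15 centred. With probe sets without a suffix, Rpl41 turned to -0.16 and Rps9 to 0.0129 in WT. The counts under other settings are given without the share of all tested genes called under the same setting. They are not to be read against 63.8% in KO and 65.9% in WT, which belong to the first fit. The causes of these changes were not tested.

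With the replicate number as a block, 7 members were called between tissues in each genotype (not Rps9 in KO, nor Rpl41, Rps2 and Rps9 in WT) and 0 by limma in the genotype comparisons. Same-numbered arrays did not deviate together (r = -0.004 in bone marrow and -0.06 in fetal liver), so they share a number and no known pairing. Members at or near the filter and those with 1 dim probe set (Rps27, Rpl39l, Rpl3l, Rps16) are limited by signal over background.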

Other observations

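Of 15 tested genes that regulate ribosomal protein synthesis, 9 were called between the tissues in KO (5 higher in fetal liver, 4 lower) and 8 in WT (4 higher, 4 lower). This was near or below the 63.8% of all tested genes called in KO and 65.9% in WT. The same holds for the hosts of small nucleolar RNAs and the genes that clear stalled ribosomes, given below. Larp1, which binds the 5′ oligopyrimidine tract of ribosomal protein mRNAs, read 11.07 and 10.89 in KO fetal liver, against 9.70 and 9.78 in KO bone marrow. In WT it read 10.68 and 10.79 in fetal liver, against 9.78 and 9.75 in bone marrow, and it rose by 1.24 ± 0.10 in KO and 0.97 ± 0.10 in WT (limma, adjusted p = 7.56e-06 and 3.21e-05). Mycn, a transcription factor of growth genes, rose by 1.98 ± 0.20 in KO and 1.87 ± 0.20 in WT. Myc rose by 0.60 ± 0.09 in KO and 0.67 ± 0.09 in WT. Mdm2, the p53 ligase that free Rpl11 binds, fell by 0.72 ± 0.11 in KO. The listed hosts of small nucleolar RNAs had 5 of 9 called in each genotype, all 5 higher in fetal liver. Of 8 genes that clear stalled ribosomes, 5 were called in each genotype, 4 higher and 1 lower, the lower one being Gtpbp2 at -1.02 ± 0.10 in KO and -0.92 ± 0.10 in WT.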
